A study of Homo sapiens with 6 samples.

Results

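The 4 human alkaline phosphatase genes were examined in MDA-MB-436 cells, an established triple-negative breast cancer line that lacks the hormone receptors and ERBB2 amplification. They are ALPP (placental type), ALPPL2 (placental-like or germ cell type, listed under its newer symbol ALPG), ALPI (intestinal type) and ALPL (tissue-nonspecific type), and they were taken by name from the 37887 gene rows of a table of raw read counts. All cells carried a tetracycline-inducible MUC1 shRNA vector, which per the methods was pLKO-tet-puro kept under puromycin selection. The vehicle group (n = 3) was grown with 0.1% DMSO and the DOX group (n = 3) with 500 ng/ml doxycycline, so the vector was common to both groups. The titles name the vehicle libraries as control shRNA, but by their treatment and the design text they are the same inducible cells given DMSO. Doxycycline-treated cells carrying a scrambled shRNA were not analysed here, so the action of doxycycline and the silencing of MUC1 cannot be told apart. The length of treatment for this line is not given in the sources used here.

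Alkaline phosphatases are zinc and magnesium enzymes that sit on the outer face of the cell membrane, held by a glycosylphosphatidylinositol (GPI) anchor, and remove phosphate groups from a wide range of substrates. ALPL is made in bone, liver and kidney, where it hydrolyses pyrophosphate, an inhibitor of mineralisation, and pyridoxal phosphate, the circulating form of vitamin B6. ALPP is normally made by the syncytiotrophoblast of the placenta, ALPPL2 at low levels in germ cells and ALPI on the brush border of enterocytes, and ALPP and ALPPL2 are also known as antigens that some tumours express outside these tissues.

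The 3 tissue-restricted genes lie side by side on chromosome 2 and are so alike that the assignment of short reads between them bears on every value below. In the GENCODE release 29 annotation of GRCh38, ALPP (ENSG00000163283.6) spans chr2:232378534-232382889, ALPG (ENSG00000163286.8) chr2:232406843-232410714 and ALPI (ENSG00000163295.4) chr2:232456123-232460032, all on the plus strand and with 11 exons in the longest protein-coding transcript. ALPP and ALPG are 23953 bases apart, and ALPG and ALPI 45408 bases. ALPL (ENSG00000162551.13) is on another chromosome, at chr1:21509372-21578412 on the plus strand, with 12 exons in the transcript used here. The coding sequences of ALPP and ALPG were identical at 1561 of 1596 aligned bases (97.8%), whereas ALPI matched ALPP at 89.7% and ALPG at 89.5%. ALPL shared only 66.1% to 66.2% of aligned bases with the other members.

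The longest coding run without a difference between ALPP and ALPG held 339 bases and extended over exons 8 to 10. Its largest piece within 1 exon, 192 bases of exon 9 at chr2:232380840-232381031 in ALPP and chr2:232408921-232409112 in ALPG (GRCh38, plus strand), is shown because a read that falls inside it has no base that separates the 2 genes.
ALPP and ALPG, exon 9: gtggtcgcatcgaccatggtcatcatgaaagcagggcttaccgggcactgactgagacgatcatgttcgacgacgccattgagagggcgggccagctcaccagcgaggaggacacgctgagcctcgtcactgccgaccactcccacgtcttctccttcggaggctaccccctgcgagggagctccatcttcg

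A search of every stretch of the longest ALPP transcript against the annotated transcripts of other genes measured how much of it a read could share. Of 2872 windows of 100 bases, 502 (17.5%) also occurred in a transcript of another gene, 379 of them in ALPG. With windows of 50 bases the shared part was 32.4% for ALPP and 29.3% for ALPG. ALPI shared 0 windows of 100 bases and 38 windows of 50 bases (1.52%), and ALPL shared none at either length. Most of the ALPP and ALPG transcripts was therefore particular to each gene at these lengths, and all of ALPL was. The read length, and how the counting treated reads with several positions, are not given in the sources used here.

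**Figure D1:**
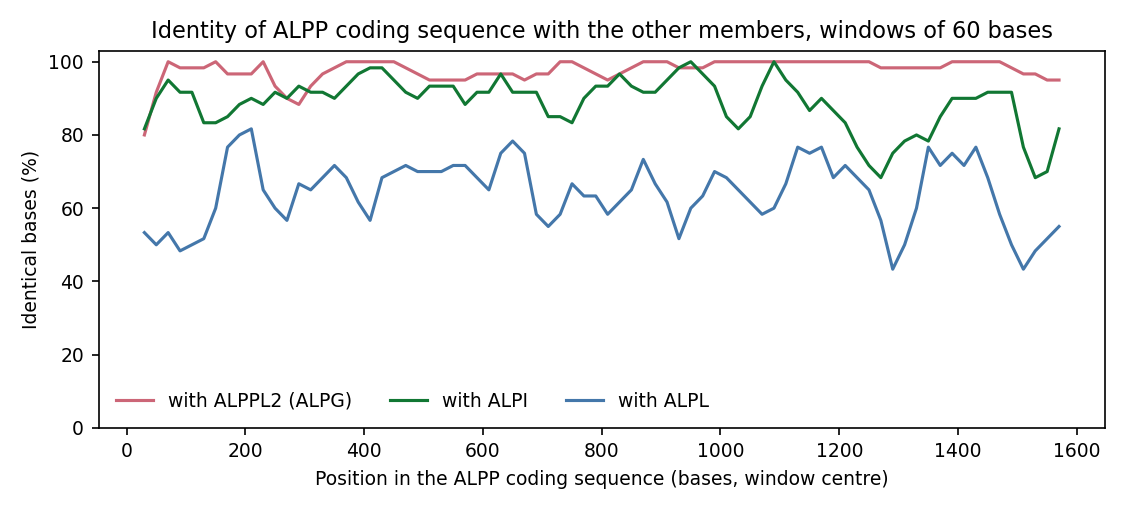
Identity (%) of the ALPP coding sequence with that of ALPG, ALPI and ALPL in windows of 60 bases, against the position of the window centre in bases from the ALPP start codon. The line for ALPG stays between 80.0% and 100%, the line for ALPI between 68.3% and 100% and the line for ALPL between 43.3% and 81.7%.

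The libraries held 18678307 to 27825546 counts each. MUC1, the target of the shRNA, had 93, 84 and 102 counts in the vehicle libraries and 72, 51 and 34 in the DOX libraries, or 3.88 ± 0.401 against 2.14 ± 0.412 CPM (counts scaled to a common library size; mean ± SD, n = 3 per group). The groups did not overlap, with a log2 fold change of -0.84 (SE 0.214), so the targeted RNA was lowered but not removed. Between replicates of a group the counts differed by more than sampling noise (chi-square per degree of freedom 2.79 to 5.55), and each library was counted as 1 replicate. Among gene counts of 1 to 20, 68.8% to 70.5% were even numbers, so a small count may hold fewer molecules than its size. No molecular identifiers were used, and the intervals and floors given here cover counting error only.

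The line markers fit a triple-negative line at the RNA level for the hormone receptors, with 2 to 12 counts of ESR1 and 0 to 4 of PGR per library. CDH1 (E-cadherin), KRT8 and KRT18 rose in the DOX group and VIM (vimentin) fell, with log2 fold changes of 3.55, 0.95, 1.02 and -0.78. Genes that are not members were tested by the quasi-likelihood method of edgeR, with p adjusted by Benjamini-Hochberg over all tested genes, and the adjusted p in edgeR was 2.5e-12 or lower for each of these 4 genes. These are bulk RNA samples, in which fewer cells of a type and less RNA per cell cannot be told apart.

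ALPP was close to silent in vehicle-treated cells and was present in every DOX library. It had 2, 15 and 8 counts in the vehicle libraries and 346, 356 and 304 in the DOX libraries. The highest vehicle library was far below the lowest DOX library, and the 3 DOX libraries were close to each other. Scaled for library size, the vehicle values were 0.0912, 0.616 and 0.310 CPM and the DOX values 12.5, 13.8 and 16.3 CPM, that is 0.339 ± 0.264 against 14.2 ± 1.94 CPM (SD, n = 3 per group). The difference was 40.3-fold, a log2 fold change of 5.33 (SE 0.236), and stood 5th among the increases of all 15355 genes that passed the filter on low counts. The family was chosen by the rise of ALPP in these same counts, so the value is a description and carries no test. The vehicle mean rested on few counts and leaned on vehicle replicate 2, without which the log2 fold change was 6.05.

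The level reached in DOX-treated cells was moderate. The mean CPM of ALPP was above that of 0.879% of the tested genes in the vehicle group and above that of 45.4% in the DOX group. With so few vehicle counts ALPP passed the filter on account of its DOX libraries. In vehicle replicate 1, the 2 counts had an exact 95% Poisson interval of 0.242 to 7.22 counts, and in vehicle replicate 2 the 15 counts had an interval of 8.40 to 24.7. If small counts hold fewer molecules than their size, these intervals are too narrow. An antisense gene, AC068134.1, overlaps ALPP in the annotation. It was not analysed here, and whether the counting of these stranded libraries used the strand is not given in the sources used here.

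ALPPL2, the nearest relative, was counted only in DOX libraries and at a far lower level than ALPP. It had 0 counts in each vehicle library and 15, 3 and 7 counts in the DOX libraries, or 0.543, 0.116 and 0.376 CPM (0.345 ± 0.215, SD, n = 3). All 3 DOX libraries were above all 3 vehicle libraries, but DOX replicate 2 held few reads. The 25 DOX counts were set against a floor of 3 counts over the vehicle group. The floor is 0.0416 CPM, and the pooled DOX libraries stood at 0.347 CPM, or 8.35 times the floor. This ratio leaves out the counting error of the DOX counts, so it is no lower limit on the fold change. On the log2 scale the ratio of 3.06 became 2.44 without DOX replicate 1. Without vehicle replicate 1, 2 or 3 it became 2.54, 2.47 or 2.41. With 0 vehicle counts, leaving out a vehicle library raises the floor, so these falls were fixed in advance. With all counts halved the ratio became 2.22, a fall that was also built in, because the floor stayed at 3 counts. ALPPL2 did not pass the filter on low counts and was not tested.

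The counts of ALPPL2 were small beside those of ALPP in the same libraries. Of the reads counted for the pair, ALPPL2 took 4.16% in DOX replicate 1 (exact 95% Clopper-Pearson interval 2.34% to 6.76%), 0.836% in DOX replicate 2 (0.173% to 2.42%) and 2.25% in DOX replicate 3 (0.910% to 4.58%). Over the 3 libraries together the share was 2.42% (1.58% to 3.56%), and without DOX replicate 1 it was 1.49%. Dividing each count by the fraction of the gene's 100-base windows found in no other gene gave 2.38%, and with 50-base windows 2.32%. These fractions were close for ALPP and ALPPL2 (82.5% and 84.2% at 100 bases, 67.6% and 70.7% at 50 bases). The corrections could therefore hardly move the share and say nothing of how reads were assigned. How many of the ALPPL2 counts came from ALPP transcripts was not tested.

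ALPI, the intestinal member, was at the limit of detection. It had 0 counts in each vehicle library and 1, 2 and 0 counts in the DOX libraries. The 3 DOX counts equal the floor, so no fold change is given. Summing the 3 chromosome 2 genes takes away the question of how reads were split between them. The sum had 2, 15 and 8 counts in the vehicle libraries and 362, 361 and 311 in the DOX libraries, and rose from 0.339 ± 0.264 to 14.6 ± 1.88 CPM (SD, n = 3 per group), a log2 fold change of 5.37 (SE 0.233). ALPP gave 1006 of the 1034 summed DOX counts and all 25 vehicle counts, so the sum had to lie close to ALPP alone. Any reads that the counting dropped for matching several genes are not restored by summing.

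ALPL moved the other way. It had 39, 20 and 46 counts in the vehicle libraries and 10, 9 and 10 in the DOX libraries. Every DOX library was below every vehicle library, and vehicle replicate 2 was the lowest of its group for ALPL and the highest for ALPP. In CPM the vehicle values were 1.78, 0.821 and 1.78 and the DOX values 0.362, 0.349 and 0.538, that is 1.46 ± 0.554 against 0.416 ± 0.105 (SD, n = 3 per group). The fitted fold was 0.282, a log2 fold change of -1.83 (SE 0.421), which stood 99th among the decreases of the 15355 tested genes. With so few DOX counts ALPL passed the filter on low counts on account of its vehicle libraries, so its place among the decreases is a description. ALPL was also taken with this contrast known, and the value carries no test.

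**Figure D2:**
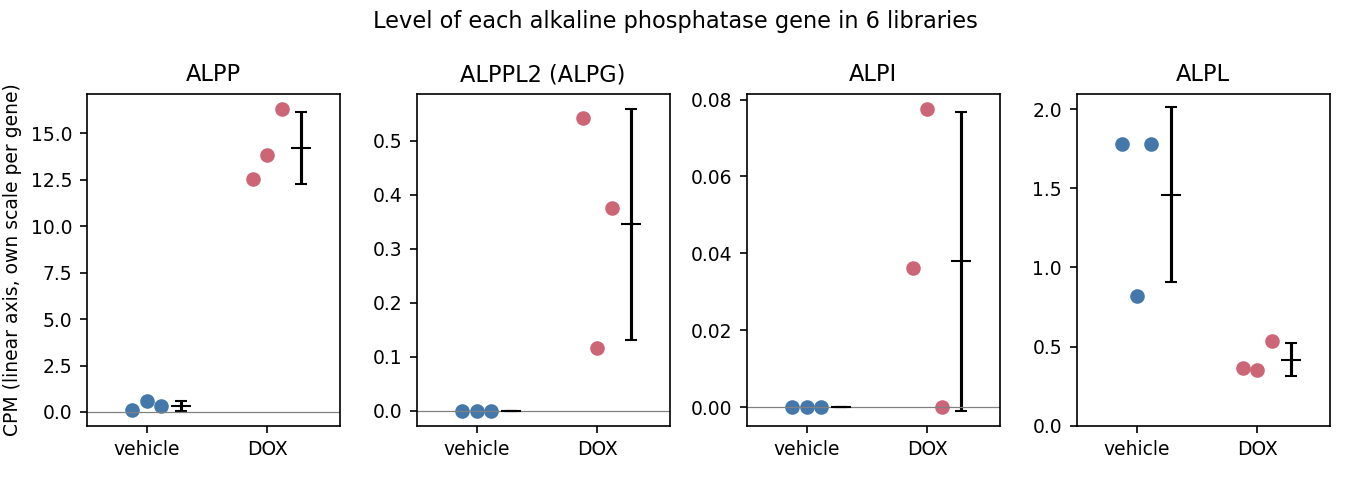
CPM of each alkaline phosphatase gene in the 3 vehicle (blue) and 3 DOX (red) libraries, on a linear axis with its own scale per gene; points are libraries and the bar is the mean ± SD. ALPP lies between 12.5 and 16.3 CPM in the DOX libraries and at most at 0.616 in the vehicle libraries, ALPPL2 is above 0 only in DOX libraries, and ALPL is at most at 0.538 in DOX libraries against at least 0.821 in vehicle libraries.

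Levels of different genes were compared as CPM per kilobase of annotated exon sequence. On that scale ALPL led in the vehicle group, at 0.592, 0.273 and 0.592 in the 3 libraries (0.486 ± 0.184, SD, n = 3). ALPP followed at 0.0298, 0.201 and 0.101 (0.111 ± 0.0861), without overlap with ALPL, and ALPPL2 and ALPI were at 0. In the DOX group ALPP led at 4.09, 4.52 and 5.34 (4.65 ± 0.635). ALPPL2 (0.138 ± 0.0862) and ALPL (0.138 ± 0.0350) came next, and their libraries overlapped. ALPI was last at 0.0144 ± 0.0148.

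The make-up of the family's RNA therefore turned over between the groups. By CPM per kilobase, ALPL made up 95.2%, 57.6% and 85.4% of the summed level of the 4 genes in the vehicle libraries and 2.71%, 2.47% and 3.15% in the DOX libraries. ALPP made up 4.80%, 42.4% and 14.6% in the vehicle libraries and 92.1%, 95.9% and 94.2% in the DOX libraries. The vehicle shares rested on 2 to 15 ALPP counts, and the DOX shares lay near the ends of the scale, where a share can vary little. The summed level of the family rose from 0.596 ± 0.112 to 4.94 ± 0.645 CPM per kilobase (SD, n = 3 per group), a ratio of 8.29. These shares follow from the members' own counts and are descriptions.

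The same turnover was seen in counts alone, without lengths. Of the reads counted for ALPP and ALPL, ALPP took 4.88% in vehicle replicate 1 (exact 95% Clopper-Pearson interval 0.596% to 16.5%), 42.9% in vehicle replicate 2 (26.3% to 60.6%) and 14.8% in vehicle replicate 3 (6.62% to 27.1%). In the DOX libraries it took 97.2% (94.9% to 98.6%), 97.5% (95.4% to 98.9%) and 96.8% (94.2% to 98.5%). These intervals describe the reads of each library and are no test between the groups.

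**Figure D3:**
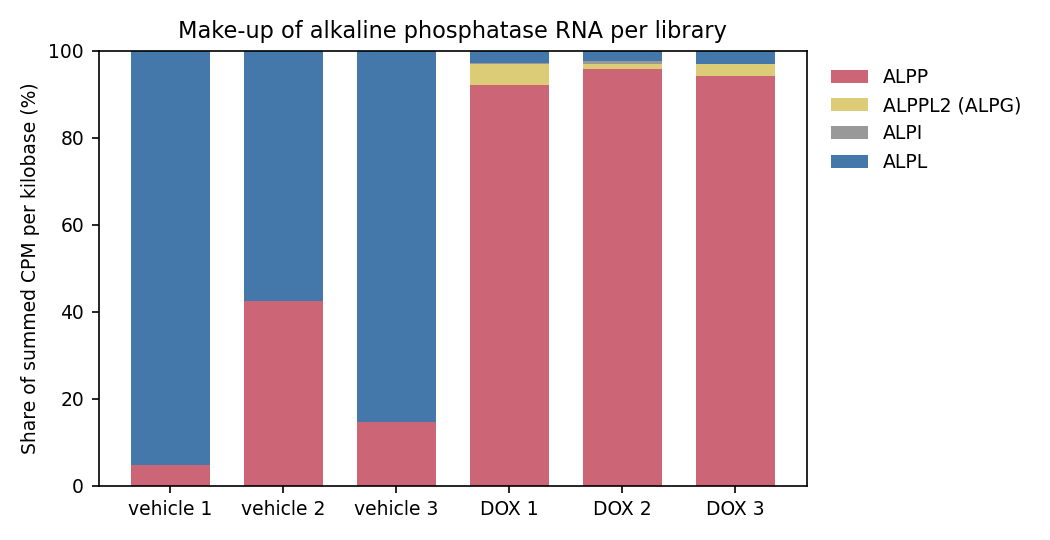
Share (%) of each member in the summed CPM per kilobase of the 4 alkaline phosphatase genes, 1 bar per library. ALPL fills 57.6% to 95.2% of the vehicle bars, and ALPP fills 92.1% to 95.9% of the DOX bars.

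The promoters of the 3 chromosome 2 genes are shown because ALPP, and at lower counts ALPPL2, were higher in the DOX group while ALPI stayed at the limit of detection. They were read from RefSeq (GRCh38.p14, plus strand), from 250 bases before to 50 bases after each annotated start. The RefSeq start of ALPP lies 217 bases inside the longest GENCODE transcript. The windows are chr2:232378501-232378800 for ALPP, chr2:232406594-232406893 for ALPG and chr2:232455903-232456202 for ALPI. Capitals mark a run of 15 bases that all 3 share, which begins 36 bases before the start in ALPP and ALPG and 34 bases before it in ALPI.
ALPP promoter: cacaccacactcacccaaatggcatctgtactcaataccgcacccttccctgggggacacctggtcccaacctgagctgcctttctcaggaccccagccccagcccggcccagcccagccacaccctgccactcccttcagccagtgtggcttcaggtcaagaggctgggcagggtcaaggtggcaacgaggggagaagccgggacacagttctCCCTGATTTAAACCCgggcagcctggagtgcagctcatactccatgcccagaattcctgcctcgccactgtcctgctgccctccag
ALPG promoter: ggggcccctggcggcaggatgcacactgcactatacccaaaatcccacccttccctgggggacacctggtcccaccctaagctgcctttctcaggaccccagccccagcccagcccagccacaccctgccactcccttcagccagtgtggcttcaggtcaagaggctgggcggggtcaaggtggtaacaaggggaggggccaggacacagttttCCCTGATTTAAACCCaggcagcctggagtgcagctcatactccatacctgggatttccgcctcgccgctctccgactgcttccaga
ALPI promoter: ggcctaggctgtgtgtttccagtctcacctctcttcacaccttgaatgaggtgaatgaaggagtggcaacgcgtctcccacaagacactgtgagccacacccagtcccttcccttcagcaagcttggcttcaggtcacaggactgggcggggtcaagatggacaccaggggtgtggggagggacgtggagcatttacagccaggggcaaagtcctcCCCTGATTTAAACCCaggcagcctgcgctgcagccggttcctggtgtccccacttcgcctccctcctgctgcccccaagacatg

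ALPP and ALPG promoters were identical at 254 of 293 aligned bases (86.7%), ALPP and ALPI at 70.3%, and ALPG and ALPI at 71.1%. The shared run CCCTGATTTAAACCC occurred, on either strand, in 3 of 35116 RefSeq promoters of the same length (0.00854%), those of these genes. The TATA-like letters TTTAAA within it were in 12.2% of all promoters and in none of the 3 ALPL promoters. CACCTG, a form of the E-box that ZEB and SNAIL factors can bind, was found in the ALPP and ALPG windows and not in that of ALPI, against 20.6% of all promoters. GGGCGG, the GC box, was found in ALPG and ALPI but not in ALPP, against 45.0% of all promoters. TGANTCA, the AP-1 letters, was in none of the 3 windows, against 7.71% of all promoters. These matches describe the sequences and say nothing of which factors were bound.

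To see which genes followed ALPP across the 6 libraries, log2(CPM + 0.1) was centred on each gene's vehicle mean and the root mean square distance to ALPP was taken for every tested gene. The 5 nearest genes were KRT6A, a keratin of stratified epithelium (distance 0.550 log2 units), COL17A1, a hemidesmosome collagen (0.634), SFN, an epithelial adaptor protein (0.959), AREG, an EGF receptor ligand (1.15), and CDH1 (1.23). All 5 were far lower in the vehicle group than in the DOX group, as the measure of likeness requires. KRT6A had 2, 4 and 2 counts in the vehicle libraries and 195, 167 and 96 in the DOX libraries. COL17A1 had 7, 7 and 6 against 328, 304 and 218. AREG was the only one of the 5 that, like ALPP, had its highest vehicle value in vehicle replicate 2 and its highest CPM in DOX replicate 3. With 6 libraries in 2 groups this is a description of shape, mostly of the step between the groups.

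**Figure D4:**
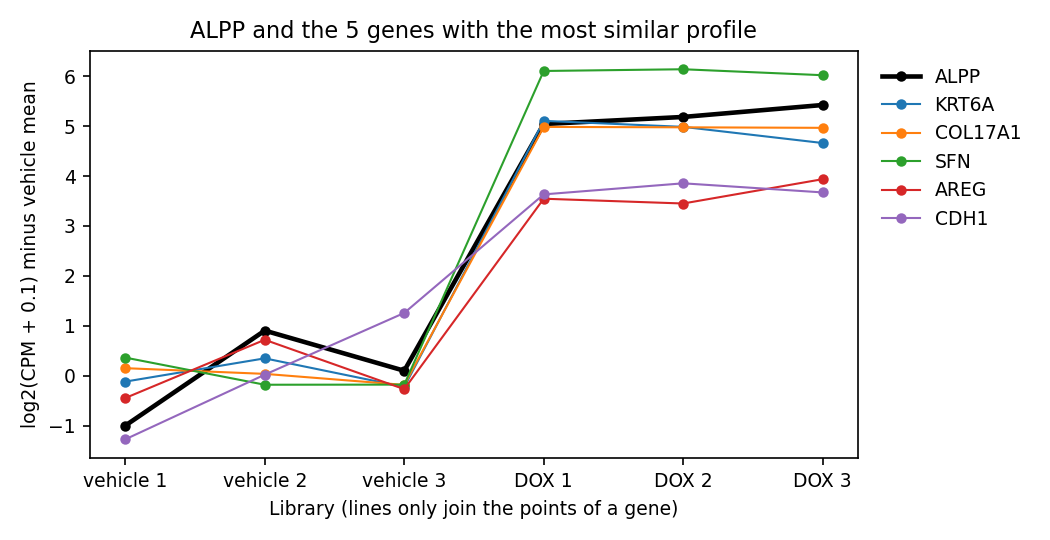
log2(CPM + 0.1) minus the vehicle mean for ALPP (black) and the 5 genes nearest to it, over the 6 libraries; lines only join the points of a gene. All 6 lines step up between the vehicle and the DOX libraries, with KRT6A and COL17A1 (distances of 0.550 and 0.634) nearest to ALPP.

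Placenta, germ cells, intestine and bone are the tissues in which these genes are normally used, and markers of them moved in both directions. Of 61 such marker genes 21 were at 0 in every library and 21 passed the filter, of which 3 were higher and 6 lower in the DOX group. Over all 15355 tested genes, 25.2% were higher and 23.6% lower, and the median log2 fold change was 0.00058, against 0.0080 for these markers. Among 10 tested trophoblast genes, the transcription factor genes GATA3 (log2 fold change 0.88), GATA2 (0.37) and TEAD4 (0.30) rose and TFAP2C (-0.45) fell. The pregnancy-specific glycoprotein genes PSG1, PSG4 and PSG5, which are near-identical copies among which reads can be split, were counted in every library at group means of 0.568 to 2.15 CPM. Their log2 fold changes were 0.42, 0.53 and 0.35, and that of the syncytin gene ERVW-1 was 0.05, none of which passed the test (edgeR adjusted p = 0.234 to 0.954). Other placental genes, CSH1, CGB8, HLA-G, VGLL1, PAGE4, XAGE2 and XAGE3 had 0 counts in all 6 libraries and GCM1 had at most 2. The median log2 fold change of the 10 tested trophoblast genes was 0.32, with 30% higher and 10% lower. The summed list lay at 257 to 274 CPM in the vehicle libraries and 245 to 257 CPM in the DOX libraries, a sum carried by TFAP2C (158 ± 5.25 against 115 ± 2.85 CPM), so median and sum differ in sign. The part of trophoblast-like expression in the values of ALPP was not tested.

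No gene of the germ cell, enterocyte and osteoblast lists was called higher. The germ cell genes NANOG, DPPA3, DPPA4 and UTF1 had at most 1 count per library, and KIT, a receptor kinase of germ cells, fell (log2 fold change -1.76). Of the enterocyte genes, CDX1, CDX2, FABP2, HNF4A, APOA1, APOA4 and MEP1A had 0 counts in every library, and ANPEP, a brush border aminopeptidase also made by other cells, fell (-0.76). Of the osteoblast genes, SPARC (-1.97), COL1A1 (-0.60) and RUNX2 (-0.36) fell beside ALPL, and SPP1, IBSP, COL1A2 and DMP1 were at 0. The call of COL1A1 was lost without vehicle replicate 2 or 3 and without any of the DOX replicates (edgeR adjusted p = 0.0535 to 0.390), and with all libraries under DESeq2 (adjusted p = 0.0751), limma-voom (0.0811) and the replicate block in edgeR (0.0718). The adjusted p of edgeR's quasi-likelihood test was 0.0417 or lower for each gene said here to rise or fall. For blood, endothelial and fibroblast genes, 4 of 11 (CD3E, HBB, DCN and LUM) were at 0, and the summed level was 3.06 to 3.69 CPM in the vehicle libraries and 2.33 to 2.46 CPM in the DOX libraries. PTPRC was higher (1.59) and PECAM1 lower (-1.94) among them, at adjusted p of 0.0113 and 0.00032 in edgeR's quasi-likelihood test, at group means of 0.242 and 0.743 CPM for PTPRC and of 1.42 and 0.370 CPM for PECAM1. The call of PTPRC was lost without vehicle replicate 1 or DOX replicate 2 (edgeR adjusted p = 0.0731 and 0.0683). With all counts halved PTPRC was no longer tested. The part of such cells in the values of ALPP was not tested.

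The tested genes around ALPP, ALPG and ALPI on chromosome 2 did not rise together in the DOX group. Of 13 neighbours 6 passed the filter, and 1 of these rose and 1 fell (16.7% in each direction). The shares over all 15355 genes were 25.2% higher and 23.6% lower, and 6 genes are too few to be set apart from them. The median of the 6 log2 fold changes was -0.04. EFHD1, which encodes a calcium-binding mitochondrial protein, had 111, 116 and 129 counts against 79, 56 and 58 and fell from 4.94 ± 0.157 to 2.72 ± 0.487 CPM (SD, n = 3 per group). Its log2 fold change was -0.87 (SE 0.187, edgeR's quasi-likelihood test, adjusted p = 0.000175). EIF4E2, a cap-binding protein gene, rose by a log2 fold change of 0.19 (SE 0.0562, edgeR, adjusted p = 0.00554), a call that was lost without vehicle replicate 2 (edgeR adjusted p = 0.0650). GIGYF2, DIS3L2, TIGD1 and NGEF did not pass the test. ECEL1 and its pseudogenes ECEL1P1 and ECEL1P2 were at 0 in every library, and ECEL1P3 had 2 counts in all.

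All 4 phosphatases need a GPI anchor, and the genes that make it were more often higher than lower in the DOX group. Of 31 tested genes 15 were higher and 5 lower (48.4% and 16.1%, beside 25.2% and 23.6% of all tested genes), with a median log2 fold change of 0.17. The changes were small, and none of the 15 exceeded 2-fold. In the assembly of the anchor, 10 of 20 tested genes were higher and 3 lower. DPM3, a subunit of the enzyme that supplies dolichol-linked mannose, rose most (9.04 ± 1.02 to 15.8 ± 1.64 CPM, log2 fold change 0.81, SE 0.112, edgeR adjusted p = 1.24e-07). PIGC and PIGP, subunits of the enzyme of the first step, rose by log2 fold changes of 0.61 and 0.52, whereas PIGQ of the same enzyme fell by 0.52 on the log2 scale. PIGX (-0.21) and PIGG (-0.17) also fell, the latter with a call that was lost without vehicle replicate 2, DOX replicate 1 or DOX replicate 3 (edgeR adjusted p = 0.141 to 0.171), with DESeq2 (adjusted p = 0.0522) and with no low-count filter (edgeR adjusted p = 0.0581). PIGY had 0 counts in every library.

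Attachment of the finished anchor to proteins, its remodelling and its release made up the other 11 genes. Of these, 5 were higher and 2 lower (45.5% and 18.2%, beside 25.2% and 23.6% of all tested genes). Their median log2 fold change was 0.03. PIGK, the catalytic subunit of the transamidase that joins the anchor to phosphatases and other proteins, had 87.3, 91.9 and 93.0 CPM in the vehicle libraries and 126, 119 and 112 CPM in the DOX libraries. The groups did not overlap (log2 fold change 0.39, SE 0.0451, edgeR adjusted p = 2.86e-09). The transamidase subunit PIGS rose by a log2 fold change of 0.29 and the remodelling gene PGAP2 by 0.44. Of the other transamidase subunits, PIGU (0.26) and GPAA1 (0.17) rose, and PIGT was at -0.006 (edgeR adjusted p = 0.938). PGAP1, the inositol deacylase, fell (-0.54). GPLD1, a phospholipase that cleaves GPI anchors, had 82, 99 and 84 counts against 44, 50 and 24. It fell from 3.69 ± 0.409 to 1.61 ± 0.326 CPM (SD, n = 3 per group; log2 fold change -1.18, SE 0.233, edgeR adjusted p = 6.09e-05).

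Zinc is loaded into secreted and surface phosphatases in the early secretory pathway by the transporters SLC30A5, SLC30A6 and SLC30A7. All 3 fell in the DOX group, beside 23.6% of all tested genes. Of the phosphatases, ALPP was higher there and ALPL was lower. SLC30A7 changed most, with 126, 134 and 127 CPM in the vehicle libraries and 80.7, 81.7 and 77.0 CPM in the DOX libraries (129 ± 4.57 to 79.8 ± 2.44, log2 fold change -0.69, SE 0.0430, edgeR adjusted p = 3.23e-16). SLC30A6 fell from 59.7 ± 1.62 to 45.3 ± 4.04 CPM (log2 fold change -0.40, SE 0.0596, edgeR adjusted p = 6.42e-07). SLC30A5 fell from 76.8 ± 2.64 to 64.7 ± 4.67 CPM (-0.25, SE 0.0522, edgeR adjusted p = 0.000143). The groups did not overlap for any of the 3 transporters, but this also held for genes that were not called, such as TIGD1 and NGEF. How many of all tested genes had no overlap was not counted. The fourth gene listed with them, TMEM163, had 3 to 19 counts per library and was not tested.

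The genes that act with ALPL on pyrophosphate and in mineralisation changed little. Of 13 listed genes 5 passed the filter, of which 1 was lower (20%, beside 23.6% of all tested genes) and none higher. That gene was ENPP1, which makes the pyrophosphate that ALPL breaks down. It fell from 40.0 ± 3.61 to 29.3 ± 0.909 CPM (SD, n = 3 per group; log2 fold change -0.45, SE 0.0705, edgeR adjusted p = 1.28e-06). ANKH, which promotes pyrophosphate release, stood at 37.4 ± 2.14 against 39.5 ± 1.94 CPM (log2 fold change 0.08, SE 0.0651, edgeR adjusted p = 0.297). PHOSPHO1, the phosphatase of matrix vesicles, had 0 to 6 counts per library and was not tested. Of the genes of vitamin B6 use, AOX1, which oxidises pyridoxal among other substrates, rose by a log2 fold change of 0.78 (SE 0.120, adjusted p = 9.01e-07 in edgeR's quasi-likelihood test). PDXK, the kinase, was at -0.03 (SE 0.0456, edgeR adjusted p = 0.671). With the zinc transporters, these 3 lists held 22 genes, of which 12 were tested, 2 were higher and 4 lower (16.7% and 33.3%, beside 25.2% and 23.6% of all tested genes).

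**Figure D5:**
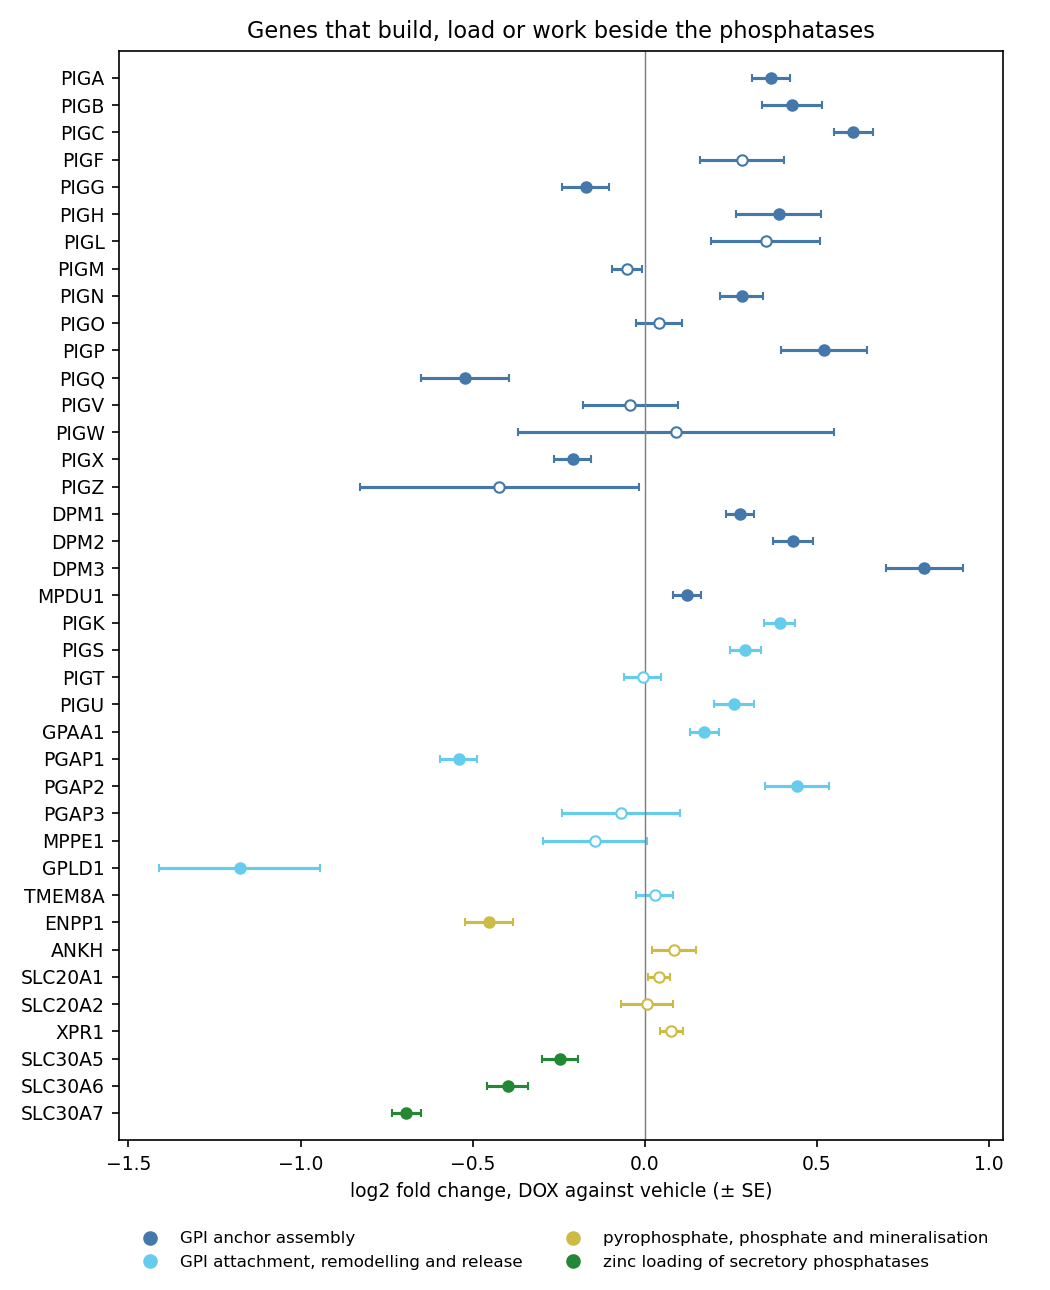
log2 fold change (DOX against vehicle, ± SE) of the tested genes that build or attach the GPI anchor, load zinc or work on pyrophosphate, coloured by list; filled points had an adjusted p under 0.05. SLC30A5, SLC30A6 and SLC30A7 lie between -0.69 and -0.25, and DPM3 (0.81) and GPLD1 (-1.18) are the ends of the range.

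Other proteins held by the same anchor did not follow ALPP as a group. Of 18 tested GPI-anchored surface proteins 5 were higher and 8 lower in the DOX group (27.8% and 44.4%, beside 25.2% and 23.6% of all tested genes, so that the higher share was near the background), with a median log2 fold change of -0.28. LYPD3, an adhesion protein of keratinocytes, rose most, from 3.94 ± 0.430 to 13.2 ± 0.776 CPM (SD, n = 3 per group; log2 fold change 1.74, SE 0.131, edgeR adjusted p = 6.77e-14). CD55, a complement inhibitor, and CD109 rose by log2 fold changes of 0.45 and 0.30. ULBP2, a ligand of a natural killer cell receptor, fell most, from 29.3 ± 1.16 to 10.1 ± 1.51 CPM (-1.52, SE 0.0954, edgeR adjusted p = 4.13e-16). NT5E, the ectoenzyme that makes adenosine, fell by 1.16 on the log2 scale and the glypican gene GPC3 by 0.80. The call of GPC3 was lost without vehicle replicate 1, DOX replicate 1 or DOX replicate 2 (edgeR adjusted p = 0.104 to 0.284) and with DESeq2 (adjusted p = 0.0589). By log2 fold change ALPP (5.33) lay above all 18 of these genes, a contrast that its choice as a member had fixed.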

How the data were processed

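RNA-seq was performed on total RNA of MDA-MB-436 cells grown in triplicate, with a stranded mRNA kit per the labels. The deposited values are raw counts of reads per gene made by the authors and not normalized. The submitters' processing notes name CASAVA 1.8.2, STAR 2.7.9a, featureCounts, DESeq2 1.24.0 and GRCh38.p7. The annotation, the strand setting and the handling of multimapping reads are not given in the sources used here. Groups were taken from the sample labels. The labels do not say how the triplicate cultures were set up, so p-values measure the spread between these samples, which may be technical.

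Counts were fitted with edgeR 4.0.16 (R 4.3.3; TMM scaling, filterByExpr, prior count 0.125, quasi-likelihood test, Benjamini-Hochberg adjustment over 15355 genes, threshold 0.05). Of 37887 genes 24406 had a count, and of the 4 members 2 passed the filter (ALPP and ALPL). The standard error was the log2 fold change divided by the root of F. CPM used TMM-scaled library sizes. The floor was 3 counts over a group. Sequences were aligned with Biopython 1.88 in Python 3.11.15, with coordinates from GENCODE release 29 and promoters from RefSeq, in which all 4 members had an entry. The scripts were tested on simulated data.

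The members and gene lists were chosen with earlier results of these data known. From each list, up to 3 genes past the threshold in each direction with the largest fold changes were named, beside genes with a direct role for the phosphatases; genes at 0 were named as a count's members, after their values were seen. Some items that meet these rules are not reported here. The lists of ecto-nucleotidases and of GPI-anchored surface proteins share NT5E, and those of mineralisation and osteoblasts share SPP1, IBSP and BGLAP. Alternatives were DESeq2 1.42.0, limma 3.58.1 (voom), no filter, prior count 2, halved counts, a replicate block, a 2-fold minimum and leaving out each library. Same-numbered samples did not deviate together (correlations 0.0064, -0.032 and -0.038), so they were not treated as pairs.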

Additional observations from a re-analysis of the deposited data

How the results depend on the processing

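ALPP (5.33), ALPL (-1.83) and the sum of the 3 chromosome 2 genes (5.37) kept their direction under every alternative run. With a replicate left out, the log2 fold change ranged from 4.93 to 6.05 for ALPP and from -2.11 to -1.66 for ALPL. For the sum it ranged from 4.97 to 6.09, and the log2 ratio of ALPPL2 to its floor ranged from 2.41 to 3.52. Both upper values for ALPP and the sum came from leaving out vehicle replicate 2. Under the other alternatives ALPP ranged from 5.05 to 5.56, ALPL from -1.85 to -1.65 and the sum from 5.09 to 5.60. Halved counts lowered this log2 ratio of ALPPL2 to 2.22, a fall built in because the floor stayed at 3 counts. Its falls without a vehicle library were built in too, since ALPPL2 had 0 counts in each vehicle library. With a replicate block, which the samples do not require, ALPP was at 5.36, ALPL at -1.77 and the sum at 5.39, and the list counts stayed within 1.5 times. The ALPPL2 ratio was not computed for DESeq2, limma-voom, prior count 2 or the block, and no value was computed for ALPI under any setting.

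For the lists, leaving out a replicate gave 14 to 16 higher and 4 to 5 lower GPI anchor genes, 2 to 3 higher and 4 lower partner genes, 5 higher and 7 to 9 lower GPI-anchored surface proteins, 0 to 1 higher and 1 lower neighbour, 3 to 4 higher and 5 to 6 lower tissue markers, and 1 to 2 higher and 4 to 5 lower ecto-nucleotidases and acid phosphatases. No filter on low counts also gave 2 higher in the last list. A minimum of 2-fold left, higher and lower, 0 and 1 GPI anchor genes, 0 and 0 partner genes, 1 and 2 surface proteins, 0 and 0 neighbours, 0 and 2 tissue markers, and 0 and 2 ecto-nucleotidases and acid phosphatases. The share of ALPPL2 in the counts of the pair was not planned beforehand, nor were its window corrections or its other alternatives. Its value without DOX replicate 1 (1.49%) was added after seeing the data. Depth limits ALPPL2 and ALPI most, and the vehicle level of ALPP, which rests on 25 counts.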

Other observations

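Other genes of phosphate release and of extracellular nucleotide and adenosine use were more often lower than higher in the DOX group. Of 18 listed ecto-nucleotidases, adenosine genes and acid phosphatases 11 were tested, of which 1 was higher and 5 lower (9.09% and 45.5%, beside 25.2% and 23.6% of all tested genes), with a median log2 fold change of -0.10. NT5E, which turns AMP into adenosine as alkaline phosphatases also can, fell from 397 ± 13.2 to 177 ± 11.0 CPM (SD, n = 3 per group; log2 fold change -1.16, SE 0.0378, edgeR adjusted p = 1.24e-24). ENPP2, which makes lysophosphatidic acid, fell from 2.47 ± 0.247 to 0.752 ± 0.0933 CPM (-1.70, SE 0.302, edgeR adjusted p = 1.24e-05). The adenosine receptor ADORA2B fell (-0.30) and adenosine deaminase, ADA, rose (0.42), with adjusted p of 0.000753 and 0.00184 in edgeR's quasi-likelihood test. Of the acid phosphatases, ACP1 was at -0.10 and ACP2 at -0.19. The ACP1 call was lost in turn without vehicle replicate 1, DOX replicate 1 or DOX replicate 3 (edgeR adjusted p = 0.0795 to 0.112). That of ACP2 was lost without vehicle replicate 1, vehicle replicate 3 or DOX replicate 2 (edgeR adjusted p = 0.0557 to 0.189). With all libraries and no low-count filter the ACP2 call was lost too (edgeR adjusted p = 0.0660).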
